A study of Mus musculus with 21 samples.

Results

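Transcript counts of 9 genes of the LIF and STAT3 pathway were followed in mouse embryonic stem cells (mESCs) that lacked, or were depleted of, the cohesin-associated proteins PDS5A and PDS5B or the cohesin subunits STAG1 and STAG2. The genes were *Lifr*, *Il6st*, *Jak1*, *Stat3*, *Socs3*, *Pim1*, *Pim3*, *Gbx2* and *Junb*. They were taken by symbol from the 23412 gene symbols in the count files, and all 9 passed the filter that kept 14963 genes for testing. Poly-A RNA was sequenced from 21 libraries in 7 conditions of 3 libraries each. The cells were v6.5 male mESCs grown on gelatin, and every condition received an siRNA at 50 nM for 48 h, so that no condition was untransfected. WT mESCs received siGLO, the transfection control, or siPds5b. *Pds5b*-/- mESCs received siGLO only. *Pds5a*-/- mESCs received siGLO, siPds5b (dual depletion), siStag1 or siStag2. Per the study's methods, the replicates of each knockout came from 1 CRISPR clone, so effects of the clone and of the gene cannot be told apart. The study's supplement calls the replicates biological where it gives counts of WT and knockout mESCs. Neither the labels nor the study say whether libraries of a condition came from separate cultures, so the p-values measure only the spread between these libraries, which may in part be technical.

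Leukemia inhibitory factor (LIF) is the cytokine that keeps mESCs self-renewing in culture with serum. It binds the LIF receptor, encoded by *Lifr*, which pairs with the shared signal transducer gp130, encoded by *Il6st*. Janus kinases such as JAK1 then phosphorylate STAT3, which dimerizes, enters the nucleus and activates transcription. Among the targets of STAT3 are *Socs3*, a feedback inhibitor of the receptor complex, the serine/threonine kinase genes *Pim1* and *Pim3*, the homeobox gene *Gbx2* and the AP-1 gene *Junb*. RNA counts measure transcripts and not phosphorylated STAT3. In a bulk library, fewer cells expressing a gene and less RNA per cell cannot be told apart.

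The upstream sequences of 2 targets are shown, *Pim1* because it was the member called in the most comparisons and *Socs3* because it was the member whose window held a STAT motif. Sequences are from RefSeq (GRCm38.p6), 5′ to 3′ on the strand of the gene. Each is the part of the 250 bases before the RefSeq start (29490785 for *Pim1*, 117969366 for *Socs3*) that comes before any exon of the gene in GENCODE vM21 within that window. Capitals mark matches to TTCNNNGAA, the palindromic core bound by STAT dimers.
Pim1: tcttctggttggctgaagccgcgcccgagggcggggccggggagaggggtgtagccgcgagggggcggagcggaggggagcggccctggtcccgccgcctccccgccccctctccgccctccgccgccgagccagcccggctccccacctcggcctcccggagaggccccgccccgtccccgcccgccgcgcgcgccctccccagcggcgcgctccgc
Socs3: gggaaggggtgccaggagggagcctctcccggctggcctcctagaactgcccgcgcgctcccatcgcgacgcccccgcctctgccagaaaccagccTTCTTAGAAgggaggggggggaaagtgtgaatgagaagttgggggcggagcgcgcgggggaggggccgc
The *Pim1* stretch is chr17:29490535-29490752 on the plus strand and the *Socs3* stretch is chr11:117969452-117969616 on the minus strand. For *Socs3* the annotations differ: the gene in GENCODE reaches 117970047, so that the stretch lies inside it, between annotated exons, and ends at an exon of a shorter transcript that precedes the RefSeq start. TTCNNNGAA, which reads alike on both strands, occurred within 250 bases before the start in 2306 of 32851 RefSeq promoter windows (7.02%). It occurred in 1 of 11 windows of the 9 members. The match in *Socs3*, TTCTTAGAA, lies at chr11:117969512-117969520 and begins 154 bases before the RefSeq start, a start that lies beyond the end of the printed stretch. No match in a window says only that these letters are not in it.

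Total counts per library were between 17311090 and 23989198 (median 19628146). No 2 libraries of a condition had identical counts, and pairs differed by a mean chi-square per gene of 4.76 to 25.2, where sampling noise alone gives about 1. Counts are given below as normalized counts, scaled to the same effective library size. *Pds5b* was at 2019 to 2354 normalized counts in WT siGLO, 687 to 839 in WT siPds5b, 238 to 312 in *Pds5b*-/- siGLO and 736 to 1073 in dual depletion. *Stag1* was at 506 to 617 with siStag1, and *Stag2* at 821 to 954 with siStag2, against 2293 to 2515 and 2930 to 3561 in *Pds5a*-/- siGLO. The *Pds5a* transcript was still counted in *Pds5a*-/- siGLO (3788 to 4786, against 4720 to 5256 in WT siGLO), so RNA counts are no check of that label. The 8 mESC markers were all detected in each condition, at a summed 6918 to 7445 CPM (counts scaled to a fixed library total) in WT siGLO and 4182 to 7640 in the other conditions. The 6 feeder fibroblast markers summed to 52.9 to 73.4 CPM in WT siGLO, 84.9 to 107 in WT siPds5b, 15.4 to 21.6 in *Pds5b*-/- siGLO and 14.8 to 69.6 in the *Pds5a*-/- conditions. In WT siGLO most of this was *Col1a1* and *Col1a2*, with means of 27.1 and 25.9 CPM. *Lum* was under 1 CPM in every condition and *Dcn* in all but *Pds5a*-/- siGLO. The part of these markers in the members' values was not tested.

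Because a long transcript collects more reads, the members were ranked in WT siGLO by normalized counts per kilobase of exon. *Pim3* was highest at 1663 ± 14.5 (SD, n = 3), followed by *Socs3* at 1028 ± 131, *Pim1* at 661 ± 44.3 and *Gbx2* at 505 ± 91.4. *Junb* (302 ± 52) and *Jak1* (249.7 ± 14) came next, and their libraries overlapped. The levels per kilobase of *Stat3* (198 ± 6.54), *Il6st* (152 ± 2.18) and *Lifr* (107 ± 14) were the lowest. Apart from *Junb* and *Jak1*, no neighbours in this order overlapped. By this measure the targets were all above the receptors and *Stat3*. The length was the union of all exons of a gene in GENCODE vM21, such as 9527 bases for *Stat3*. Which transcripts were expressed was not determined, and a shorter transcript would give a higher level per kilobase, so the order may depend on this choice.

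**Figure D1:**
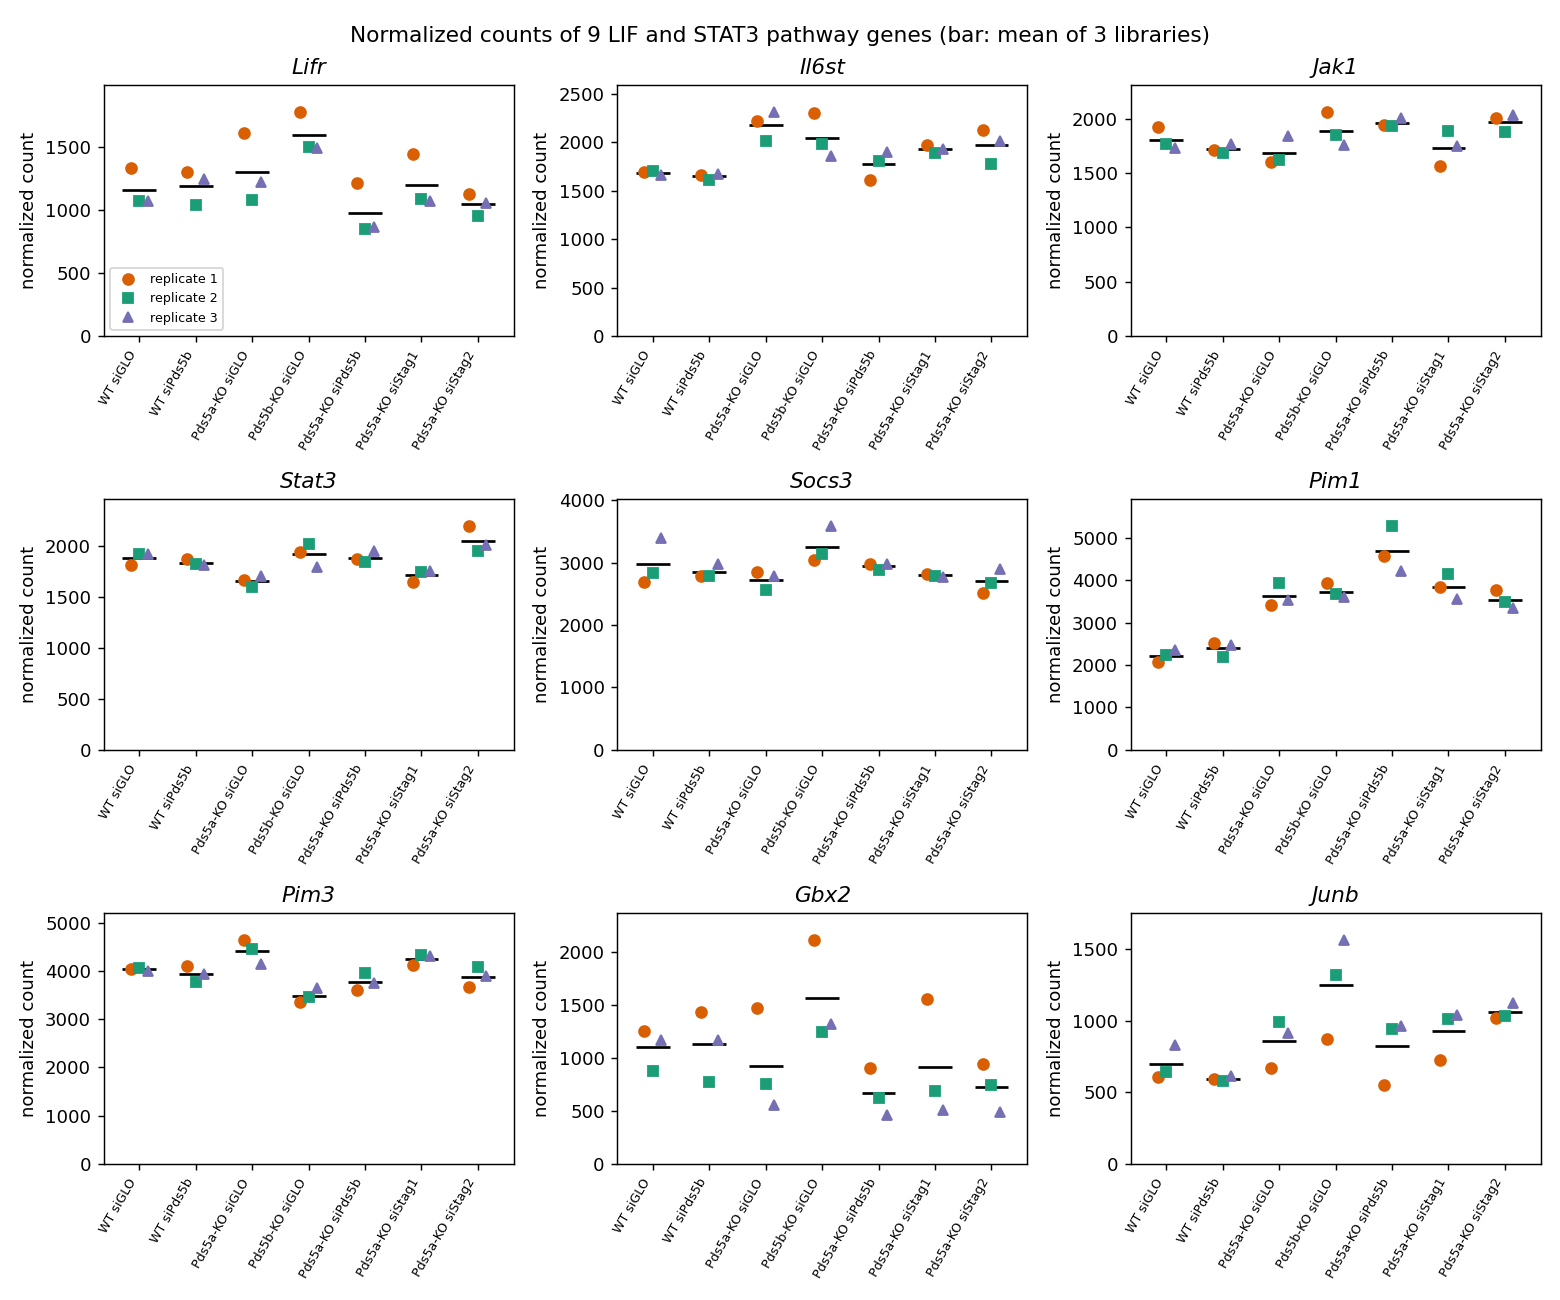
Normalized counts (y axis, linear from 0) of the 9 genes in the 21 libraries, by condition (x axis, with KO for the knockouts). Points are libraries, shaped and coloured by replicate number, and bars are means of 3 libraries. For Pim1, all libraries of the 5 knockout conditions lie at or above 3357, and the WT libraries lie at or below 2531.

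The receptor gene *Lifr* (chr15:7090614-7197489) was not called in any comparison, where a call is an adjusted p under 0.01 in edgeR's quasi-likelihood test over all 14963 genes. Its normalized counts were 1332, 1068 and 1073 in WT siGLO and 1614, 1076 and 1218 in *Pds5a*-/- siGLO. In *Pds5b*-/- siGLO they were 1779, 1503 and 1495, all above WT siGLO, a log2 fold change of 0.46 ± 0.16 (SE; adjusted p = 0.0388). In dual depletion they were 1216, 849 and 862. The dual depletion value against *Pds5a*-/- siGLO was a log2 fold change of -0.41 ± 0.16 (adjusted p = 0.0972). The first library was the highest in both conditions, and the groups overlapped. Libraries with the same replicate number deviated together in this comparison, and with the number as a block the adjusted p of *Lifr* was 0.000602 at a log2 fold change of -0.42.

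*Il6st* (chr13:112464070-112510086), which encodes gp130, was higher in *Pds5a*-/- siGLO than in WT siGLO. Its normalized counts were 1696, 1707 and 1660 in WT siGLO and 2216, 2015 and 2316 in *Pds5a*-/- siGLO. The groups did not overlap, and the log2 fold change was 0.37 ± 0.08 (adjusted p = 0.00128). Without the third *Pds5a*-/- siGLO library the adjusted p was 0.0113. In *Pds5b*-/- siGLO the counts were 2299, 1979 and 1858, also all above WT siGLO, but the log2 fold change of 0.28 ± 0.08 was not called (adjusted p = 0.0118). In dual depletion the counts were 1607, 1807 and 1903, which spanned the WT siGLO range. The log2 fold change of dual depletion against *Pds5a*-/- siGLO was -0.30 ± 0.08 (adjusted p = 0.0129), and with the replicate block the adjusted p was 0.0076. With siStag1 and siStag2 in *Pds5a*-/- mESCs, the counts of *Il6st* were 1896 to 1969 and 1779 to 2127, above every WT siGLO library, with log2 fold changes of 0.20 and 0.23 that were not called.

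*Jak1* (chr4:101152367-101265282) encodes the kinase bound to these receptors and was not called in any comparison. Its normalized counts over all 21 libraries were between 1560 and 2063, and the means of the 7 conditions spanned 0.23 on the log2 scale. Within *Pds5a*-/- mESCs, *Jak1* was at 1605, 1617 and 1840 with siGLO, at 1941, 1930.1 and 2001 with siPds5b and at 2003, 1876 and 2037 with siStag2. Both knockdowns were thus above siGLO without overlap. The log2 fold changes were 0.21 ± 0.08 (adjusted p = 0.0601) and 0.22 ± 0.08 (adjusted p = 0.0701). The end of *Jak1* overlaps the end of *Raver2* on the opposite strand, only at chr4:101152367-101152370, and *Stat3* and *Junb* overlap *Stat5a* and *Prdx2* end to end. The starts of *Pim1* and *Gbx2* overlap *Gm26885* (chr17:29446919-29491925) and *D130058E05Rik* (chr1:89930234-89933290) on the opposite strand, neither of them in the count files. Whether the counting used strand is not given in the sources used here, so shared reads in those overlaps cannot be told apart.

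*Stat3* (chr11:100885098-100939540) varied little between libraries of a condition, with a residual SD of 0.06 on the log2 scale. Its normalized counts were 1667, 1601 and 1706 in *Pds5a*-/- siGLO and 2201, 1950.2 and 2008 in *Pds5a*-/- siStag2, without overlap. *Stat3* was called higher with siStag2, at a log2 fold change of 0.31 ± 0.06 (adjusted p = 0.005). The call was lost without replicate 1 or 2 of *Pds5a*-/- siGLO or replicate 1 or 3 of *Pds5a*-/- siStag2, without replicate 1 of every condition, and when only those 2 conditions were fitted, with adjusted p up to 0.0697. With siStag1 the counts were 1646, 1749 and 1760, and the difference of siStag2 from siStag1 was 0.26 ± 0.06 on the log2 scale (adjusted p = 0.0321). Against WT siGLO (1812, 1922 and 1918), *Stat3* was at a log2 fold change of -0.18 ± 0.06 in *Pds5a*-/- siGLO (adjusted p = 0.0325) and of 0.12 ± 0.06 in *Pds5a*-/- siStag2 (adjusted p = 0.119).

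*Socs3* (chr11:117966079-117970047), the feedback inhibitor whose upstream stretch holds the STAT motif printed above, was not called in any comparison. In normalized counts *Socs3* was at 2689, 2829 and 3402 in WT siGLO, 2845, 2567 and 2779 in *Pds5a*-/- siGLO, 3043, 3132 and 3593 in *Pds5b*-/- siGLO and 2978, 2879.6 and 2974 in dual depletion. These conditions overlapped with WT siGLO. The 95% interval of the log2 fold change against WT siGLO was -0.29 to 0.04 in *Pds5a*-/- siGLO and -0.18 to 0.15 in dual depletion. Between the knockouts, *Socs3* was lower in every *Pds5a*-/- siGLO library than in every *Pds5b*-/- siGLO library, with a log2 fold change of -0.25 ± 0.08 (adjusted p = 0.0172).

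*Pim1* (chr17:29490753-29496112), which encodes a survival kinase, was higher than in WT siGLO in all 5 knockout conditions. Its normalized counts were 2061, 2247 and 2356 in WT siGLO and 2531, 2202 and 2467 in WT siPds5b. They were 3424, 3938 and 3547 in *Pds5a*-/- siGLO and 3938, 3667 and 3595 in *Pds5b*-/- siGLO. The counts were 4575, 5289.7 and 4225 in dual depletion, 3845, 4141 and 3557 with siStag1 and 3783, 3485 and 3357 with siStag2 in *Pds5a*-/- mESCs. No library of the 5 knockout conditions overlapped with a WT library. The log2 fold change against WT siGLO was 0.71 ± 0.09 in *Pds5a*-/- siGLO (164% of WT siGLO; adjusted p = 1.17e-06). It was 0.75 ± 0.09 in *Pds5b*-/- siGLO (168% of WT siGLO; adjusted p = 5.63e-07). It was highest in dual depletion, at 1.08 ± 0.09 (211% of WT siGLO; adjusted p = 5.57e-10). With siStag1 and siStag2 it was 0.79 ± 0.09 (adjusted p = 1.66e-07) and 0.67 ± 0.09 (adjusted p = 1.18e-06). These comparisons share the 3 WT siGLO libraries. The part of reads from the overlapping *Gm26885* in the *Pim1* counts was not tested. *Pim1* passed in all 13 alternative settings of each of the 5 comparisons.

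Within *Pds5a*-/- mESCs, *Pim1* was higher with siPds5b than with siGLO, at a log2 fold change of 0.37 ± 0.08 (adjusted p = 0.00372). The libraries did not overlap (4225 to 5289.7 against 3424 to 3938). The call was lost without replicate 1 or 3 of *Pds5a*-/- siGLO, replicate 2 of dual depletion or replicate 1 of every condition, and when only those 2 conditions were fitted, with adjusted p up to 0.0443. Dual depletion was also higher than siStag2 in the same cells, by 0.41 ± 0.08 on the log2 scale (adjusted p = 0.00305), a call lost without replicate 2 of dual depletion or replicate 2 or 3 of siStag2, and in a fit of only those 2 conditions (adjusted p up to 0.0336). The log2 fold changes of *Pim1* for siStag1 and siStag2 against siGLO were 0.08 ± 0.08 and -0.04 ± 0.08, with 95% intervals from -0.09 to 0.26 and from -0.21 to 0.14. In WT mESCs, siPds5b gave 0.11 ± 0.09 for *Pim1* (adjusted p = 0.9998), with an interval from -0.06 to 0.29. The difference between the siPds5b effects in the 2 genotypes was 0.26 ± 0.12 for *Pim1* (adjusted p = 0.265), so it is not shown that the effect differed between genotypes.

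*Pim3* (chr15:88862186-88865726), a kinase of the same family, differed from *Pim1* in its levels. Normalized counts of *Pim3* were 4052, 4062 and 3997 in WT siGLO, 4659, 4452 and 4142 in *Pds5a*-/- siGLO and 3369, 3457 and 3649.7 in *Pds5b*-/- siGLO. The knockouts thus lay on opposite sides of WT siGLO without overlap. *Pim3* was higher in *Pds5a*-/- than in *Pds5b*-/- siGLO at a log2 fold change of 0.34 ± 0.06 (adjusted p = 0.000252). When only those 2 conditions were fitted the adjusted p was 0.013. Against WT siGLO the values were 0.13 ± 0.06 (adjusted p = 0.126) and -0.21 ± 0.06 (adjusted p = 0.0137), neither of them called. In *Pds5a*-/- mESCs, *Pim3* was at 3618 to 3956 with siPds5b, a log2 fold change of -0.23 ± 0.06 against siGLO (adjusted p = 0.0156).

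*Gbx2* (chr1:89927956-89931179), which encodes a homeobox factor that can sustain mESC self-renewal, had the widest spread. The normalized counts were 1253, 874 and 1169 in WT siGLO, 1468, 750.1 and 554 in *Pds5a*-/- siGLO, 2119.6, 1249 and 1323 in *Pds5b*-/- siGLO and 909, 621 and 461 in dual depletion. The residual SD on the log2 scale was 0.55, and every condition overlapped with WT siGLO. The log2 fold change in dual depletion was -0.73 with a 95% interval from -1.70 to 0.24, in a model without the replicate number. Set against the WT siGLO library of the same number, the 3 libraries were at log2 ratios of -0.46, -0.49 and -1.34, all below 0. Over all genes, however, deviations of same-numbered libraries of these conditions correlated at only -0.03 to 0.23, where different numbers had a median of -0.10.

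*Junb* (chr8:84974484-84978718), an AP-1 subunit gene, was at 609, 644 and 832 in WT siGLO and 871, 1319 and 1568 in *Pds5b*-/- siGLO. The groups did not overlap, but the log2 fold change of 0.85 ± 0.23 lay just outside the threshold (adjusted p = 0.0103). Without replicate 1 of every condition the adjusted p was 5.18e-07. The 727 tested genes of chromosome 8, where *Junb* lies, had a median log2 fold change of 0.30 in the same comparison, with 83.5% of them above 0, against -0.02 on the other chromosomes. The part of this in the *Junb* value was not tested. In *Pds5a*-/- siGLO the chromosome 8 median was -0.20, and *Junb* was at 668, 988 and 914, a log2 fold change of 0.30 ± 0.23 (adjusted p = 0.366). *Junb* was above every WT siGLO library only with siStag2 among the siRNAs given to *Pds5a*-/- mESCs, at 1018, 1032 and 1126 (log2 fold change 0.60 ± 0.23, adjusted p = 0.0427).

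**Figure D2:**
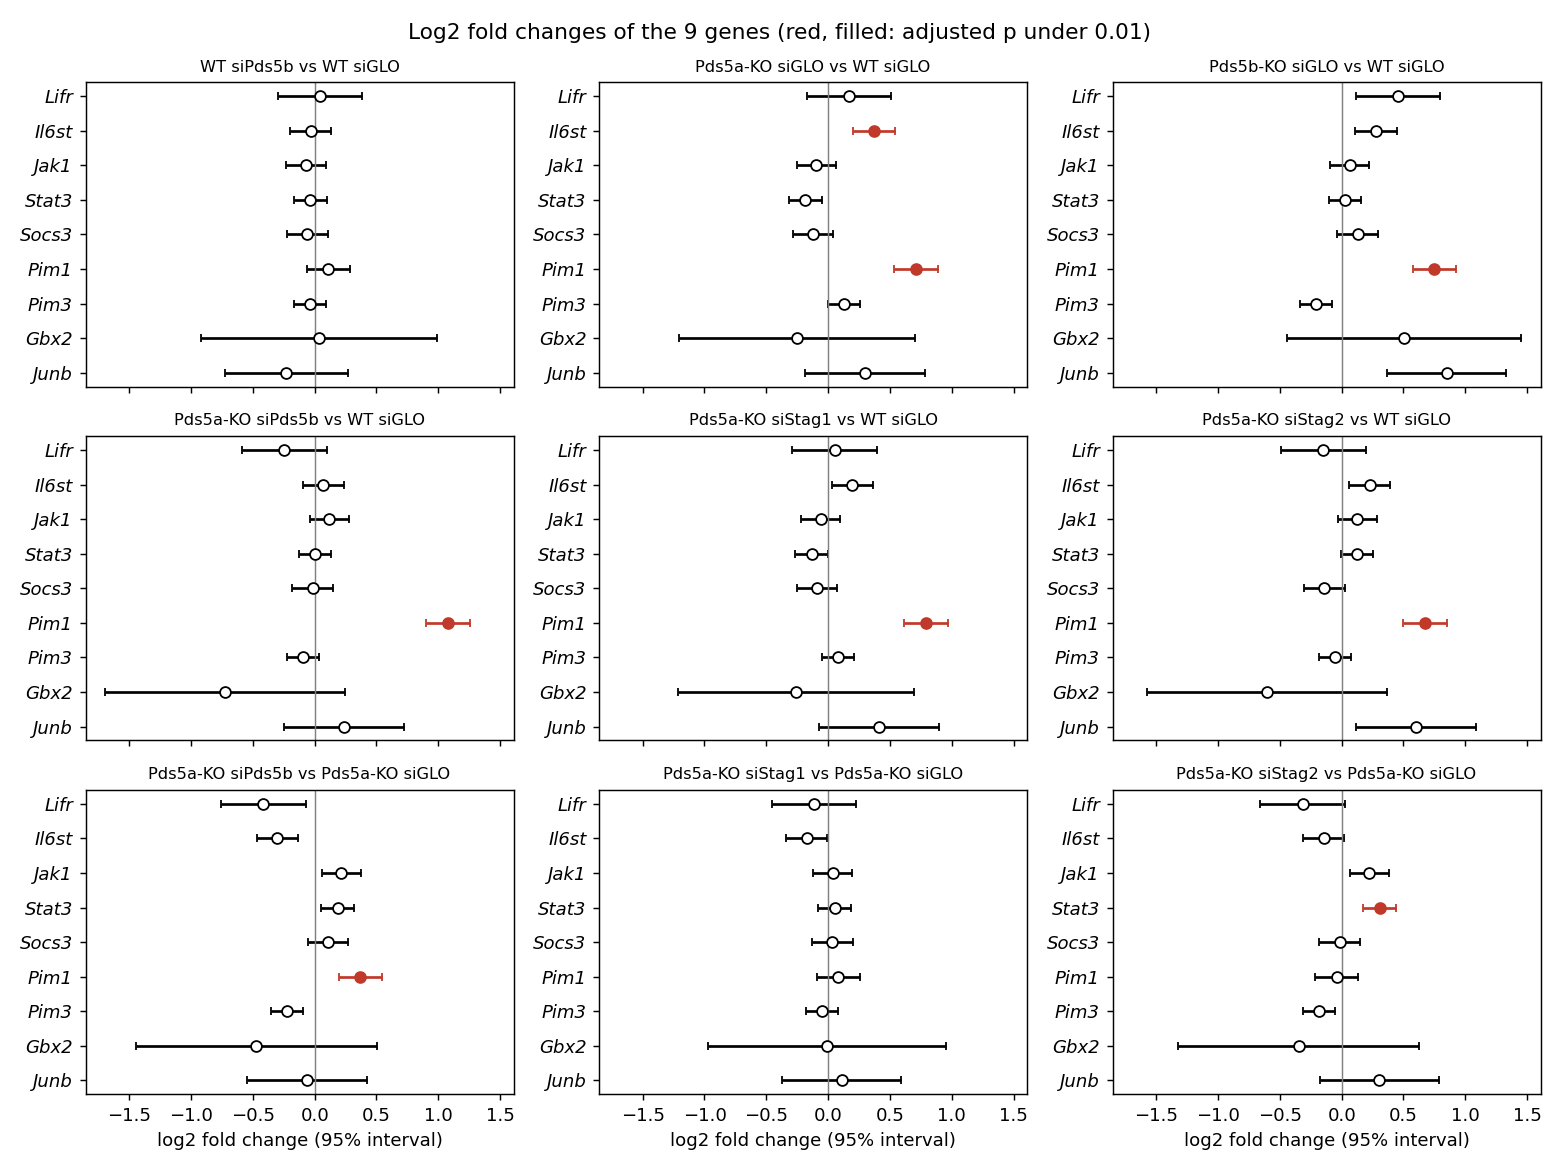
Log2 fold changes (x axis) of the 9 genes (y axis) in 9 comparisons, 1 per panel, with 95% intervals. Red filled points passed an adjusted p under 0.01, which Pim1 did in each knockout condition against WT siGLO, with values from 0.67 to 1.08.

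Counted over members, WT siPds5b had 0 of 9 called against WT siGLO in edgeR (DESeq2 also called 0), where 0% of all tested genes were called higher and 0.00668% lower. In edgeR, 0 members had an unadjusted p under 0.05, against 631 of 14963 genes. *Pds5a*-/- siGLO had 2 members higher and 0 lower, *Il6st* and *Pim1*, where 9.63% of all genes were higher and 8.12% lower. *Pds5b*-/- siGLO had 1 higher and 0 lower, against 9.64% and 8.57% of all genes. Dual depletion had 1 higher and 0 lower, against 17.4% and 14.6%. The same counts, 1 and 0, held for siStag1 (10.6% and 9.37% of all genes) and siStag2 (16.2% and 13.9%) in *Pds5a*-/- mESCs against WT siGLO. The member called in these 4 comparisons was *Pim1*. A single called gene among 9 is a share close to that of all genes called higher in these comparisons. In dual depletion, log2 fold changes had a median size of 0.12 among the 9 members and 0.30 among all genes tested. The members' median was also the smaller in WT siPds5b (0.04 against 0.09), *Pds5a*-/- siGLO (0.18 against 0.22), siStag1 (0.13 against 0.24) and siStag2 (0.15 against 0.29). It was the larger in *Pds5b*-/- siGLO (0.28 against 0.25). Against *Pds5a*-/- siGLO it was larger for siPds5b (0.23 against 0.18) and siStag2 (0.22 against 0.18), and smaller for siStag1 (0.05 against 0.12). The genes behind these medians were not matched for abundance. The members had a mean log2 CPM from 5.49 (*Junb*) to 7.65 (*Pim3*), so the medians do not show whether the members responded less or more than genes of like abundance.

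Against *Pds5a*-/- siGLO, siPds5b had 1 member higher and 0 lower (4% and 3.59% of all genes) and siStag2 had 1 higher and 0 lower (0.969% and 1.27%). With the replicate block, siPds5b had 3 members called, *Pim1* higher and *Lifr* and *Il6st* lower, where 5.73% of all genes were higher and 4.75% lower in the same fit. For siStag1, 0 members were called by edgeR or DESeq2, where edgeR called 0.0134% of all genes higher and 0.0802% lower. In edgeR, 1 member had an unadjusted p under 0.05, against 1598 of 14963 genes. *Pds5a*-/- against *Pds5b*-/- siGLO had 1 higher, *Pim3*, and 0 lower (9.74% and 9.46% of all genes). Between siStag2 and siStag1, 0 members were called by edgeR (0.167% of all genes higher and 0.227% lower). DESeq2 called 1, *Stat3*, higher, with 0.976% of all genes higher and 0.862% lower. In edgeR, 3 members had an unadjusted p under 0.05 in this comparison, against 2971 of 14963 genes. Dual depletion against siStag2 had 1 higher and 0 lower (2.04% and 1.92%). For the difference between the siPds5b effects in *Pds5a*-/- and WT mESCs, 0 members were called by edgeR or DESeq2, where edgeR called 0.588% of all genes higher and 0.896% lower. For the same difference in edgeR, 5 members had an unadjusted p under 0.05, against 2589 of 14963 genes.

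Replicate number went with the level of several members. The library numbered 1 was the highest of its condition for *Lifr* and *Gbx2* in 7 of 7 conditions and the lowest for *Junb* in 6 of 7. With the number as a term, the residual SD on the log2 scale was 0.10 instead of 0.22 for *Lifr*, 0.32 instead of 0.55 for *Gbx2* and 0.19 instead of 0.30 for *Junb*. For *Pim1* it was 0.11 with and without the number. Over the 21 libraries, which share these numbers and conditions, Pearson's r of log2 CPM was 0.83 between *Lifr* and *Gbx2*, given as a description.

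**Figure D3:**
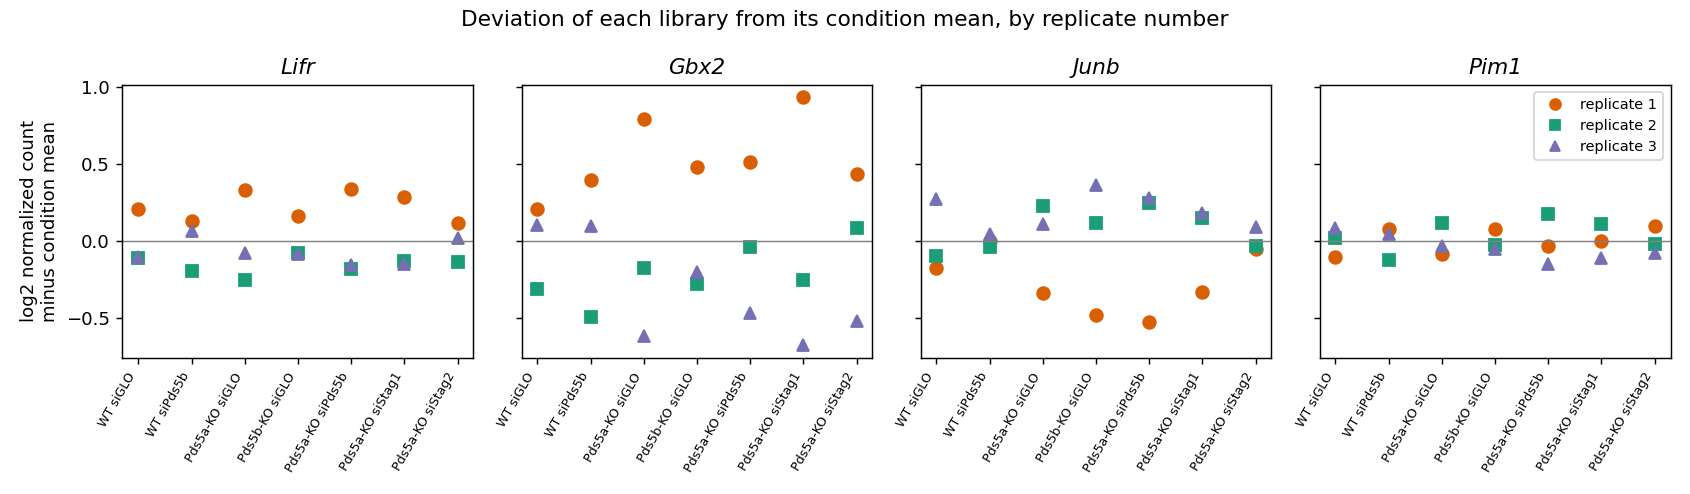
Log2 normalized count of each library minus its condition mean (y axis) for Lifr, Gbx2, Junb and Pim1, by condition (x axis) and replicate number (shape and colour). Replicate 1 is highest in 7 of 7 conditions for Lifr and Gbx2 and lowest in 6 of 7 for Junb, while no number leads throughout for Pim1.

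Other genes of the pathway were counted by list, beside the shares of all tested genes called against WT siGLO. These shares were 17.4% higher and 14.6% lower in dual depletion. They were 9.63% and 8.12% in *Pds5a*-/- siGLO and 9.64% and 8.57% in *Pds5b*-/- siGLO. Among 11 tested genes for cytokines and other receptors of the family, 3 were higher and 1 lower in dual depletion against WT siGLO. They included *Lif* itself, at 75 to 132 normalized counts in WT siGLO and 164 to 256 in dual depletion (log2 fold change 0.99 ± 0.19, adjusted p = 0.000212). *Lif* was also higher in *Pds5a*-/- siGLO (0.80, adjusted p = 0.00305) and with siStag2 (1.03, adjusted p = 0.000172). The receptor gene *Cntfr* fell by 0.75 on the log2 scale in dual depletion. In *Pds5a*-/- siGLO the list had 2 higher and 1 lower, and in *Pds5b*-/- siGLO 1 and 1.

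Among 9 other Janus kinase and STAT genes, 1 was higher and 2 lower in dual depletion against WT siGLO. Of all tested genes, 17.4% were higher and 14.6% lower in that comparison, which also holds for the lists below. *Jak2* rose by 0.88 ± 0.21, while *Jak3*, a kinase of lymphoid cytokine receptors, fell by 1.17 ± 0.13 and *Stat6* fell by 0.60 ± 0.11 on the log2 scale. In *Pds5a*-/- siGLO the list had 0 higher and 3 lower (9.63% and 8.12% of all genes). Among 14 negative regulators, 3 were higher and 2 lower in dual depletion. *Socs1*, a relative of *Socs3*, rose by 1.26 ± 0.16 (adjusted p = 1.13e-06), from a mean of 91.2 to 218 normalized counts, and *Ptpn6*, a tyrosine phosphatase gene, fell by 0.85 ± 0.13. Within *Pds5a*-/- mESCs, *Socs1* was higher with siPds5b than with siGLO, at 0.79 ± 0.16. Among 6 adaptor and phosphatase genes, which link gp130 to the MAP kinase pathway, 1 was higher in dual depletion (*Shc1*, 0.65 ± 0.07). In *Pds5b*-/- siGLO, 2 of them were higher (*Gab1*, 0.72, and *Sos1*, 0.60), where 9.64% of all genes were. Among 12 immediate early genes, 3 were higher and 1 lower in dual depletion, with *Jun* at 1.37 ± 0.18 and *Ier2* at -0.81 ± 0.11.

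Among 15 other STAT3 targets, 5 were higher and 4 lower in dual depletion against WT siGLO, where 17.4% of all genes were higher and 14.6% lower. *Klf4*, a pluripotency factor gene, was at 3269 to 3472 normalized counts in WT siGLO, 1622 to 1707 in *Pds5a*-/- siGLO, 1669 to 2019 in *Pds5b*-/- siGLO and 573 to 657 in dual depletion. The knockouts overlapped each other, and both lay below WT siGLO and above dual depletion. *Klf4* fell by 2.45 ± 0.08 on the log2 scale in dual depletion against WT siGLO (adjusted p = 7.62e-17), and its log2 fold change against *Pds5a*-/- siGLO was -1.42 ± 0.08. *Tfcp2l1*, another self-renewal factor gene, fell by 2.28 ± 0.19 in dual depletion, and *Zfp36*, an mRNA decay factor gene, rose by 1.16 ± 0.20. *Pim2*, the remaining kinase of the *Pim1* family, fell by 1.18 ± 0.26 in *Pds5a*-/- siGLO while its log2 fold change in *Pds5b*-/- siGLO was -2.43 ± 0.28. In dual depletion *Pim2* was at a mean of 2974 normalized counts, against 3491 in WT siGLO and 1535 in *Pds5a*-/- siGLO. Its log2 fold changes there were -0.23 ± 0.26 against WT siGLO (adjusted p = 0.497) and 0.96 ± 0.26 against *Pds5a*-/- siGLO (adjusted p = 0.0223), neither of them called. The median log2 fold change of the 15 targets in dual depletion was 0.28, against -0.0013 over all tested genes. The summed CPM of the 8 mESC markers was 4821 to 5360 in dual depletion against 6918 to 7445 in WT siGLO. That of 4 trophoblast markers was 17.8 to 22.1 against 2.79 to 4.42, with *Elf5* under 1 CPM in both conditions. The sum of 4 neuroectoderm markers (52.5 to 62.0 against 99.0 to 136) lay below that of WT siGLO without overlap. So did the sum of 4 mesoderm markers (14.2 to 17.4 against 22.4 to 58.8). A sum is carried by its most abundant genes, and single markers did not all follow it. Of 4 neuroectoderm markers tested, 1 was called higher and 2 lower, and of 3 mesoderm markers tested, 0 were higher and 1 lower. The sums of 6 primitive endoderm markers (50.0 to 88.4 against 42.9 to 74.1) and 6 feeder fibroblast markers (22.2 to 65.6 against 52.9 to 73.4) overlapped. *Zic1* and *Mesp1* were under 1 CPM in both conditions. The part of these shifts in the changes of the lists was not tested.

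**Figure D4:**
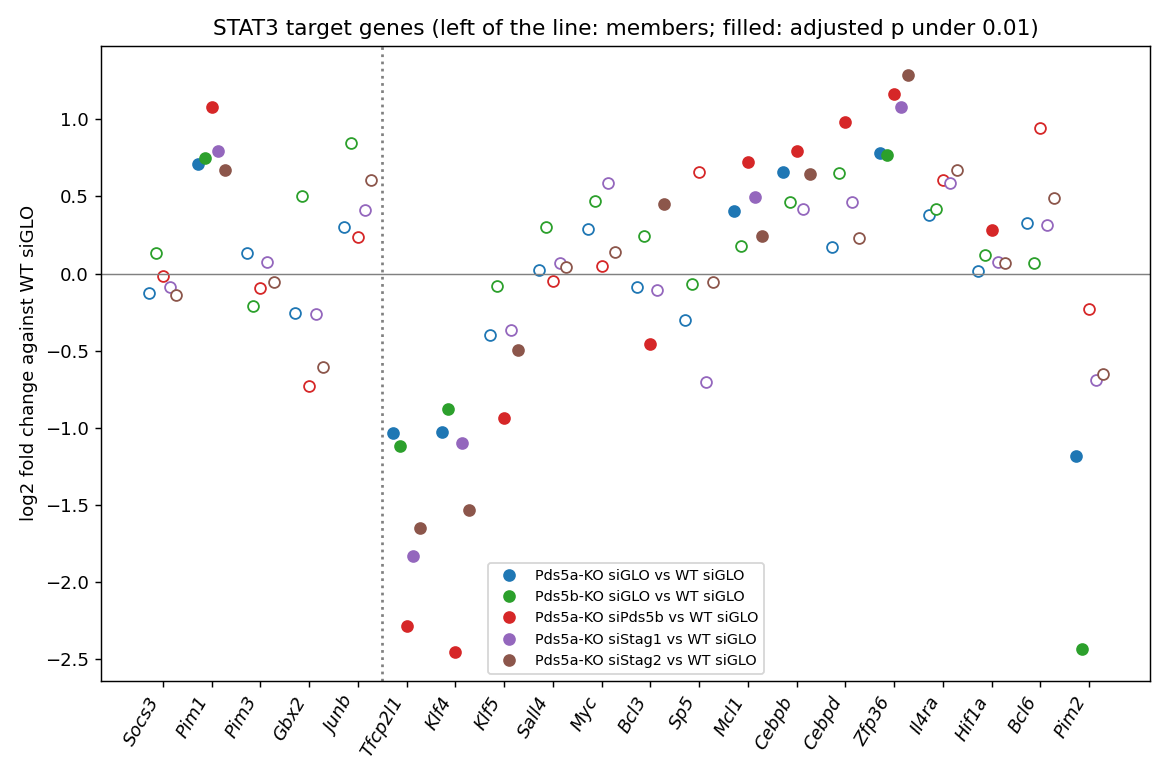
Log2 fold changes against WT siGLO (y axis) of 5 member targets (left of the dotted line) and 15 other STAT3 targets (x axis) in the 5 knockout conditions (colours, with KO for the knockouts). Filled points passed an adjusted p under 0.01. Klf4 and Tfcp2l1 are filled and below 0 in all 5, and Pim1 is filled and above 0 in all 5.

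The genes whose log2 CPM followed each member most closely over the 21 libraries were taken by Pearson's r. For *Pim1* they were *Ctgf* (0.955) and *Tmem30b* (0.954), and for *Lifr* they were *Lama1* (0.897) and *Sirt1* (0.892). For *Pim3* they were *Rangrf* (0.898) and *Pdcd5* (0.871), for *Gbx2* *Mthfd2* (0.902) and *Skap2* (0.891), and for *Junb* *Tpm4* (0.880) and *Akt1* (0.868). For *Stat3* they were *Sec24b* (0.874) and *Hivep1* (0.856), for *Jak1* *Kif1b* (0.861) and *Heatr5a* (0.829), and for *Il6st* *Gfpt2* (0.851) and *Trim27* (0.825). *Socs3* had the lowest values, with *Atp6v1b2* (0.764) and *Cnot7* (0.751). The libraries share conditions, clones and replicate numbers, so these values are descriptions.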

How the data were processed

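Poly-A RNA-seq was measured in 21 libraries. The authors aligned paired-end reads to mm10 with STAR, used DESeq2 for their own tests and deposited raw read counts per gene symbol, without normalization. The counting tool, annotation and use of strand are not given in the sources used here. Libraries were grouped by their labels. Counts were tested with edgeR 4.0.16 in R 4.3.3: edgeR's filter over the 7 conditions left 14963 of 23412 symbols, libraries were scaled by TMM, and 1 robust quasi-likelihood model was fitted to all libraries. P-values were adjusted by Benjamini-Hochberg over all tested genes, with calls under 0.01. Standard errors are the log2 fold change over the square root of F. Normalized counts are scaled to 19816922 counts per library.

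The members and lists were chosen with earlier results of these data known. All 9 members were described. From each other list, genes were named among at most 3 called genes per comparison with the largest log2 fold change in size, with mean log2 CPM no lower than 1, and the 2 genes most like each member were named. Some called genes of the lists are not reported here by name.

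Replicate numbers were checked over all genes. Every same-numbered pair deviated together (correlation over 0.1) in WT siPds5b against WT siGLO. The same held for siPds5b, siStag1 and siStag2 against siGLO within *Pds5a*-/- mESCs. In the other comparisons at least 1 pair was not over 0.1. On simulated counts for dual depletion against WT siGLO, with 200 of 14963 genes changed, 65% of changes of 1 and 32% of changes of 0.5 on the log2 scale were called, and 0% of calls were false. The simulated libraries were independent, had the spread fitted to these data and no effect of replicate number. In the data 4787 genes were called in this comparison. The simulated shares therefore check the procedure and do not carry over to the data. Alternatives were DESeq2 1.42.0, RLE normalization, scaling by library size, no low-count filter, only the conditions compared, a replicate block and each library left out. Positions and exon lengths came from GENCODE vM21. Plots used matplotlib 3.10.9.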

Additional observations from a re-analysis of the deposited data

Results flagged for a closer look

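*Klf4*, one of the other STAT3 targets, was picked out because the effect of siPds5b differed between genotypes. In WT mESCs siPds5b gave a log2 fold change of -0.22 ± 0.08, and in *Pds5a*-/- mESCs it gave -1.42 ± 0.08. The difference between these effects was -1.21 ± 0.11 (edgeR's quasi-likelihood test, adjusted p = 3.99e-07). The direction was lower in both genotypes, but the value in WT mESCs was not called. *Klf4* was not alone: of the 8 mESC markers, 0 were called higher and 3 lower for the same difference (0.588% and 0.896% of all genes). With 3 libraries per condition, single libraries were not tested as outliers.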

How the results depend on the processing

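*Pim1* was called in the 5 knockout conditions against WT siGLO under every alternative run. The counts of members called moved as follows. The share of all tested genes called in the same fit follows each count. DESeq2 called 4 in *Pds5b*-/- against WT siGLO (21.5%), 3 in dual depletion against *Pds5a*-/- siGLO (10%), 3 between the knockouts (22.8%) and 1 between siStag2 and siStag1 (1.84%). RLE normalization called 3 in *Pds5b*-/- against WT siGLO (18.2%) and 2 between the knockouts (19%). In models of the compared conditions alone, 2 were called in *Pds5b*-/- (17.3%) and 2 in *Pds5a*-/- siStag2 (28.9%) against WT siGLO, and 0 in siPds5b (3.44%) or siStag2 (0.622%) against *Pds5a*-/- siGLO, between the knockouts (12.6%), and in dual depletion against siStag2 (1.75%). With the replicate number as a block, 4 were called in *Pds5b*-/- against WT siGLO (*Lifr*, *Il6st*, *Pim1* and *Junb*; 22.2%), 2 in *Pds5a*-/- siStag2 against WT siGLO (33.7%), 3 in dual depletion against *Pds5a*-/- siGLO (10.5%) and 4 between the knockouts (23.7%). *Gbx2* in dual depletion against WT siGLO was at a log2 fold change of -0.79 with the block and not called (adjusted p = 0.0217). The block changed no other count. Of these comparisons, only dual depletion against *Pds5a*-/- siGLO had every same-numbered pair correlated over 0.1. In *Pds5b*-/- against WT siGLO these correlations were 0.09 to 0.30 (median of different numbers -0.14), and between the knockouts 0.04 to 0.40 (-0.22). For *Pds5a*-/- siStag2 against WT siGLO they were -0.08 to 0.03. The cause of these moves was not tested.

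Leaving out single libraries, or replicate 1 of every condition (an alternative chosen after seeing the data), gave 1 to 2 members called in *Pds5a*-/- siGLO (11.7% to 19.2% of all genes), 1 to 3 in *Pds5b*-/- siGLO (11.6% to 17.5%), 1 to 3 in dual depletion (25.6% to 31.8%), 1 to 2 with siStag1 (14.3% to 19.7%) and 1 to 2 with siStag2 (22.9% to 27%), each against WT siGLO. It gave 0 to 1 for siPds5b (4.61% to 7.4%) and 0 to 1 for siStag2 (0.501% to 2.58%) against *Pds5a*-/- siGLO, 1 to 4 between the knockouts (11.6% to 18.1%) and 0 to 1 for dual depletion against siStag2 (1.81% to 3.15%). Without replicate 1, *Lifr*, *Pim1* and *Junb* were called in *Pds5b*-/- and in dual depletion against WT siGLO. *Pim1* and *Junb* were higher in both. *Lifr* was higher in *Pds5b*-/- (1503 and 1495 normalized counts) and lower in dual depletion (849 and 862), against 1068 and 1073 in WT siGLO. *Gbx2* turned direction: its log2 fold change ran from -0.75 to 0.0078 in *Pds5a*-/- siGLO and from -0.89 to 0.029 with siStag1 against WT siGLO, from -0.77 to 0.029 with siPds5b and from -0.62 to 0.15 with siStag2 against *Pds5a*-/- siGLO, and from -0.63 to 0.28 between siStag2 and siStag1. A setting that leaves out replicates keeps at least 2 libraries per condition. The smallest raw count of a member in a library was 463 (*Gbx2*).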
